A study of Mus musculus with 69 samples.

Results

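In all, 10 genes of renal sodium reabsorption were followed in whole kidneys of lupus-prone mice: the 3 subunits of the epithelial sodium channel ENaC (Scnn1a, Scnn1b and Scnn1g), the Na-K-2Cl cotransporter NKCC2 (Slc12a1), the Na-Cl cotransporter NCC (Slc12a3), and 5 regulators (Wnk1, Wnk4, Stk39, Klhl3 and Nedd4l). The members were chosen by symbol, as listed transporters and regulators, and all 10 were found among the 24523 gene symbols with values. The study sequenced kidney RNA of female NZB/W F1 mice, a hybrid strain that develops immune complex nephritis, to ask how nephritis and its treatment change the daily rhythm of renal genes. Young mice were 12 weeks old. Nephritic mice were 30 to 45 weeks old and were used 2 to 3 weeks after proteinuria had passed 300 mg/dl. Remission mice had been given cyclophosphamide, CTLA4Ig and anti-CD40L after nephritis began, at 36 to 50 weeks of age, and were used 8 weeks later with proteinuria down to 30 mg/dl. Kidneys were perfused and taken at Zeitgeber times (ZT, with lights on at ZT0 and off at ZT12) every 4 h. There were 30 young mice (7, 4, 4, 7, 4 and 4 at ZT0, ZT4, ZT8, ZT12, ZT16 and ZT20), 27 nephritic mice (7, 4, 4, 6, 3 and 3) and 8 remission mice (4 at ZT0 and 4 at ZT12). No group of old mice without nephritis was analysed here, so age and nephritis cannot be told apart.

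Sodium that has passed the proximal tubule is taken back in sequence by NKCC2 in the thick ascending limb, NCC in the distal convoluted tubule and ENaC in the connecting tubule and collecting duct. The kinases WNK1 and WNK4 activate SPAK (the product of Stk39), which phosphorylates NCC and NKCC2, while the Cullin-3 adaptor KLHL3 marks WNK kinases for degradation and the ubiquitin ligase NEDD4-2 (Nedd4l) removes ENaC from the membrane. Aldosterone acts on the last of these segments through the mineralocorticoid receptor, and the distal transporters are among the renal genes known to follow the circadian clock.

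Total counts per library were 25257530 to 35744843 in young, 26596500 to 48075977 in nephritic and 13311278 to 21849912 in remission mice, and the 10 genes took 0.260% to 0.491% of them. In all, 11 of the young and nephritic libraries, all at ZT0 or ZT12, were assigned to RNASeq Set 1 (6 young and 5 nephritic mice), and all others to Set 2. No label field gives the set. It was inferred from the style of the mouse titles and the study's table of mice per set. Every set covariate and comparison of sets rests on this. No label names a sequencing run. The remission libraries and 4 repeat libraries were numbered in 1 series, and fits with a run covariate assume that they formed a run of their own, although 1 repeat (44175692 counts) lay far above the remission depths. One remission ZT12 mouse (replicate 4) went against its time label, with Arntl at 27.01 CPM (read counts scaled to a common, TMM-corrected library size) where the young ZT12 mice lay between 2.13 and 4.78, and Dbp at 7.91 where they lay between 63.9 and 129. One repeat library resembled a different mouse (Spearman's rho = 0.971 across the most variable genes) more than its own original (rho = 0.912). Each original library is a separate mouse, and p-values measure the spread between mice. Fits with a run covariate are the exception. They hold each repeated mouse as both original and repeat, without a term for the mouse, so their p-values treat these libraries as separate mice. Because these are whole kidneys, fewer cells of a type and less RNA per cell cannot be told apart.

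The promoters of Scnn1b and Slc12a3, which were high in the middle of the light phase in young mice (described with the time courses), are shown first, with that of Scnn1g, the neighbour of Scnn1b, whose time of day did not pass (adjusted p = 0.109). Scnn1g (mm10/GRCm38.p6, chr7:121734420-121768482, plus strand) and Scnn1b (chr7:121865038-121918728, plus strand) lie next to each other, 96.6 kb apart, and Slc12a3 is at chr8:94329109-94366222 on the plus strand. Each run is the RefSeq GRCm38.p6 sequence upstream of the annotated gene start, 5′ to 3′, and capitals mark a nuclear receptor half-site (AGGTCA, here on the reverse strand).
Scnn1b, chr7:121864788-121865037: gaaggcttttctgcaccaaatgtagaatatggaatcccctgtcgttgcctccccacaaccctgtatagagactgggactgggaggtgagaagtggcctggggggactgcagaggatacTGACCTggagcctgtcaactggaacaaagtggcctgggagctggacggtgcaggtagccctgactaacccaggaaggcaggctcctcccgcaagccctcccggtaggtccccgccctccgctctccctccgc
Scnn1g, chr7:121734229-121734419: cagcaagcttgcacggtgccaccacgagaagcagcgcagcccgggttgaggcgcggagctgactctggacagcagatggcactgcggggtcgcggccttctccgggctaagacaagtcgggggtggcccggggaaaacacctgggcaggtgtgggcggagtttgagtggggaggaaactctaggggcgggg
Slc12a3, chr8:94328958-94329108: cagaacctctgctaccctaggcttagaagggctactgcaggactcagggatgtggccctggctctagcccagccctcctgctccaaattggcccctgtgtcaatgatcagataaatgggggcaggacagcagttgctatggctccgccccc
The first 250 bases of 32851 RefSeq promoter windows were searched on both strands. For Scnn1g and Slc12a3 this stretch ran past the annotated gene start, where the printed runs of 191 and 151 bases end. AGGTCA occurred in 14%, the E-box CACGTG in 6.02%, the D-box TTATGTAA in 0.819% and the steroid receptor half-site AGAACA in 16.1%. Of the 8 members with an entry, 1 held AGGTCA (Scnn1b, with its first base 132 bases before the gene start) and 0 held any of the others. These matches describe letters only, and no binding was measured.

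Of the other 7 members, 6 lie on chromosomes 2 (Slc12a1, chr2:125152510-125230002, plus strand, and Stk39, chr2:68210445-68472108, minus strand), 6 (Scnn1a, chr6:125314271-125344943, plus strand, and Wnk1, chr6:119923969-120038695, minus strand), 11 (Wnk4, chr11:101260537-101277409, plus strand) and 13 (Klhl3, chr13:58000226-58123477, minus strand). Reads were summed per gene, so the long Wnk1 kinase and its short kidney-specific form were counted together.

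Levels were compared between genes only per length, as CPM per kb of the longest transcript. In young mice the 2 cotransporters were the most abundant, with Slc12a1 at 293 ± 114 (SD, n = 30) and Slc12a3 at 286 ± 58.9 CPM per kb, which did not differ beyond their spread. Wnk4 followed at 117 ± 17.6, then Wnk1 at 59.7 ± 8.11 and Scnn1a at 54.3 ± 6.91, again within each other's spread. Of the other ENaC subunits, Scnn1b stood at 37.4 ± 8.52 and Scnn1g at 20.1 ± 3.21. Nedd4l (17.2 ± 1.72) and Stk39 (16.9 ± 1.83) were close to each other, and Klhl3 was lowest at 3.50 ± 0.654 CPM per kb. The place of Wnk1 depends on its divisor, since reads of its long and short forms were divided by the longest transcript.

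Over the whole day, nephritic kidneys held less of 5 of the 10 genes than young kidneys, and 0 were higher (edgeR quasi-likelihood test with time point and set as covariates, Benjamini-Hochberg adjusted p of at most 0.05). Of all genes tested, 62.1% passed, so this share is not above the background. The median difference over the members was -0.19 on the log2 scale, against -0.03 over all genes. The genes that were lower were NCC and 4 regulators.

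**Figure D1:**
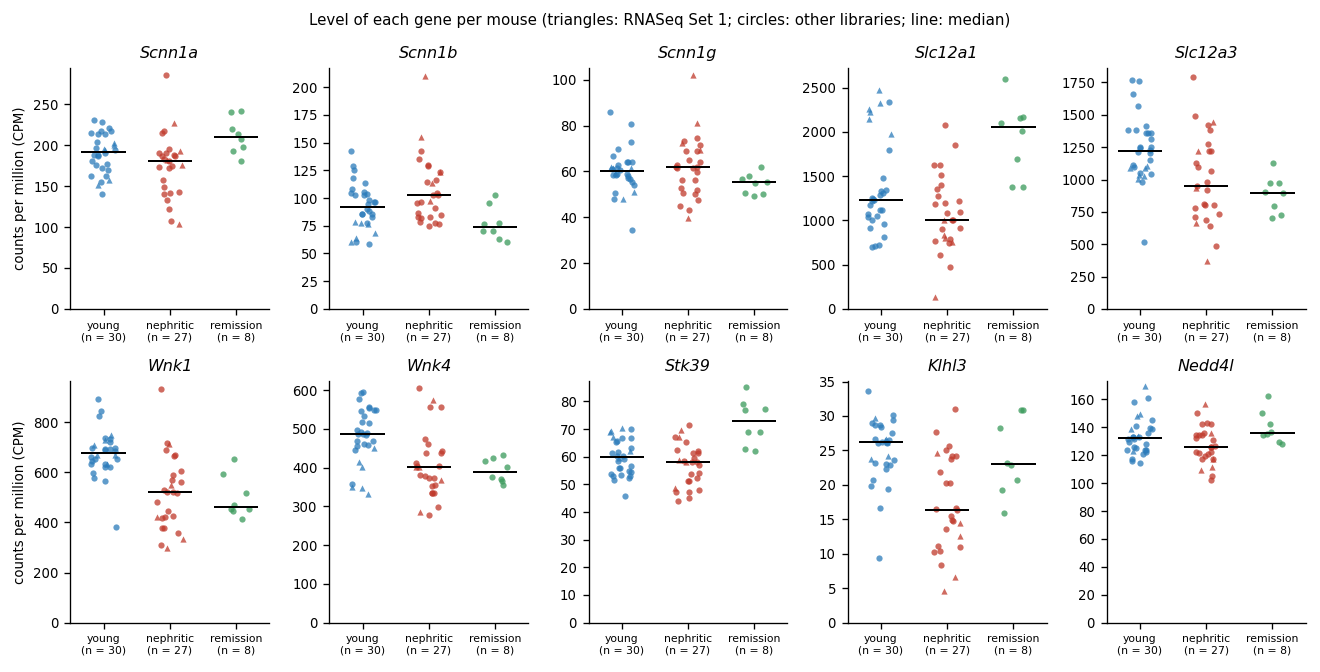
CPM of each gene (y axis, from 0) in every mouse, by diagnosis (x axis), with the median as a line; triangles are Set 1 mice. Klhl3 and Wnk1 sit lower in nephritic than in young mice with overlap, and the Set 1 triangles of Slc12a1 lie at the top of the young mice and in the lower part of the nephritic mice.

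Among the transporters, Slc12a3 ran from 520 to 1769 CPM in young mice (median 1220) and from 371 to 1794 in nephritic mice (median 951). The ranges overlapped widely, and the difference was -0.35 ± 0.11 (log2 ± SE, adjusted p = 0.00385). Slc12a1 ran from 702 to 2477 CPM (median 1234) in young and from 134 to 2077 (median 1008) in nephritic mice, a difference of -0.31 ± 0.15 that missed the threshold (adjusted p = 0.0745).

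The ENaC subunits did not pass this test. Scnn1a, the pore-forming subunit the channel cannot do without, had medians of 192 CPM in young and 181 in nephritic mice (-0.13 ± 0.07, adjusted p = 0.0852). Scnn1b ran from 58.1 to 143 (median 92.3) in young and from 74.7 to 210 (median 102) in nephritic mice (0.19 ± 0.09, adjusted p = 0.0579). It did pass with RLE size factors, without the filter on low counts, with DESeq2 and with repeat libraries in place of their originals. It also passed when any of 39 of the 57 mice was left out (adjusted p down to 0.0141). Scnn1b did not pass with limma-voom, without the set covariate, or within the set that covers every time point. Nor did it pass with a covariate for distal or injury markers. With the injury covariate its difference was -0.024 (adjusted p = 0.931). Scnn1g, the subunit that carries a site cleaved when the channel is activated, had medians of 60.1 and 61.9 CPM (0.02 ± 0.07, adjusted p = 0.837).

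Klhl3 showed the widest drop among the 10 genes. It ran from 9.43 to 33.6 CPM (median 26.2) in young and from 4.63 to 31.1 (median 16.4) in nephritic mice (-0.59 ± 0.12, adjusted p = 5.05e-05). Wnk1 fell from a median of 678 CPM (381 to 890) to 522 (296 to 930), by 0.41 ± 0.08 (adjusted p = 2.34e-05). Both groups overlapped for each gene, since several nephritic mice lay within the young range. Wnk4 had medians of 487 and 403 CPM (-0.25 ± 0.07, adjusted p = 0.00145). Nedd4l was lower by a small amount (-0.08 ± 0.03, adjusted p = 0.0187, medians 132 and 126 CPM), and leaving out any of 31 of the 57 mice ended that call. Stk39 had medians of 59.8 and 58.0 CPM (-0.07 ± 0.04, adjusted p = 0.097).

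Markers of the segments moved as well, and their part in these differences was not tested as a cause. All 4 distal convoluted tubule markers were lower in nephritic mice (median -0.94), with summed levels of 286 to 3032 CPM against 1896 to 4934 in young mice. Of 4 thick ascending limb markers 1 was higher and 0 lower, with sums of 2531 to 7514 CPM in young and 1106 to 6725 in nephritic mice. Of 6 principal cell markers 1 was higher (Aqp2, 0.33) and 1 lower (Aqp4), with sums of 924 to 1494 and 798 to 2571 CPM. Of 4 intercalated cell markers 1 was higher and 1 lower, and of 2 podocyte markers 1 was higher. All 5 proximal tubule markers were lower (7775 to 13086 CPM in sum in young and 1210 to 10296 in nephritic mice). All 4 tubular injury markers (34.1 to 145 and 43.3 to 1764 CPM) and all 6 leukocyte markers (12.4 to 28.7 and 25.1 to 504 CPM) were higher, and no marker was at 0 throughout. With a score of distal markers, or an injury score (mean log2 CPM of Lcn2 and Havcr1), as a covariate, 1 member (Nedd4l) still passed. Calls over all 17521 genes fell too, from 10877 to 6333 with the distal score and to 2923 with the injury score.

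**Figure D2:**
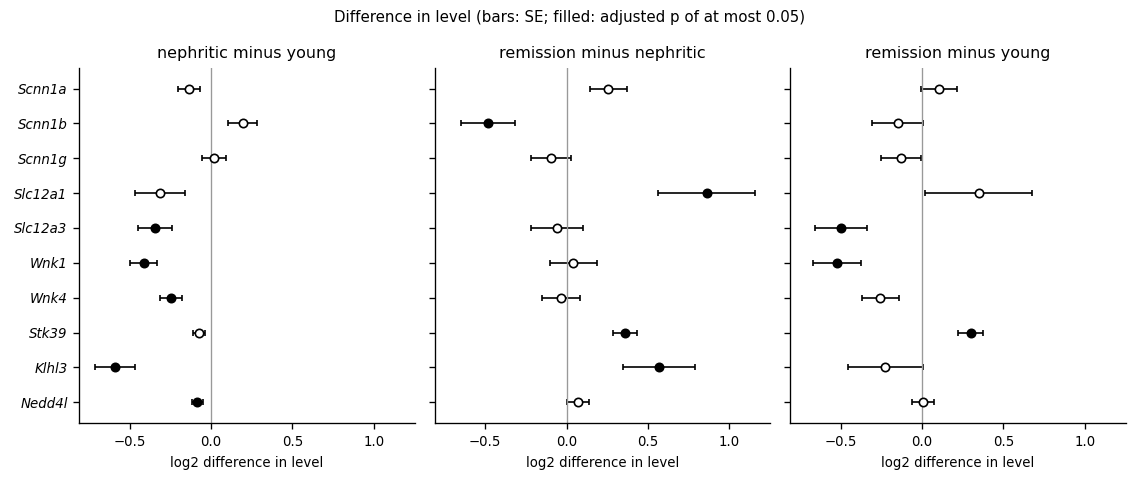
Log2 difference in level of each gene ± SE (x axis) for the 3 pairs of groups, with filled points for an adjusted p of at most 0.05. Klhl3, Wnk1, Slc12a3, Wnk4 and Nedd4l are filled below 0 in the nephritic panel, while Stk39 is filled above 0 in both remission panels.

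The nephritic difference of 4 members depended on the RNASeq set. This was seen in the values first and then tested at ZT0 and ZT12, the times both sets hold. In Set 1, Scnn1b lay between 60.1 and 78.3 CPM in 6 young mice (median 72.2) and between 97.2 and 210 in 5 nephritic mice (median 124), with no overlap, a difference of 0.97 ± 0.16 (adjusted p = 2.22e-05). In Set 2 it lay between 86.0 and 113 in 8 young mice (median 97.1) and between 76.2 and 143 in 8 nephritic mice (median 83.4), with overlap (-0.08 ± 0.13, adjusted p = 0.648).

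Slc12a1 moved the other way. In Set 1 the young mice held 1982 to 2477 CPM (median 2241) and the nephritic mice 134 to 1002 (median 806), with no overlap (-1.64 ± 0.35, adjusted p = 0.000318). In Set 2 the young mice held 702 to 1795 (median 1199) and the nephritic mice 471 to 2077 (median 1489), a difference of 0.19 ± 0.28 (adjusted p = 0.611). The young mice themselves thus differed between sets, without overlap in this gene. The share of all genes that separate in these ways was not counted. The lowest value, 134 CPM, and the highest Scnn1b value, 210 CPM, came from the same nephritic ZT0 mouse (replicate 3).

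The difference between sets passed for Scnn1b (Set 1 minus Set 2, 1.06 ± 0.21, adjusted p = 0.000507), Slc12a1 (-1.83 ± 0.44, adjusted p = 0.00258), Scnn1g (0.59 ± 0.20, adjusted p = 0.0226) and Wnk4 (0.54 ± 0.18, adjusted p = 0.0182), 4 of 10 members against 35.1% of all genes. In Set 1 alone 4 members passed, 1 higher (Scnn1b) and 3 lower (Slc12a1, Wnk1 and Klhl3), against 60.9% of all genes. In Set 2 alone 3 passed, all lower (Slc12a3, Wnk1 and Wnk4), against 36.3%. Wnk1 was lower in both sets (-0.59 and -0.53). Single mice decided 3 of these results: Scnn1g between sets without nephritic ZT0 mouse replicate 3 (adjusted p = 0.056), Wnk1 in Set 1 without nephritic ZT12 mouse replicate 1 or 2 (up to 0.0628), and Slc12a3 in Set 2 without any of 5 mice (up to 0.0634).

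Segment markers moved with the sets too, and their part was not tested. The summed thick ascending limb markers had a median of 6996 CPM in young and 2126 in nephritic mice of Set 1, and of 3515 and 4636 in Set 2. The summed principal cell markers had medians of 1153 and 1761 in Set 1 and of 1291 and 1178 in Set 2. The nephritic mice of Set 1 had a median injury score of 8.56 against 5.97 in Set 2. Sequencing set and the mice in it cannot be told apart.

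**Figure D3:**
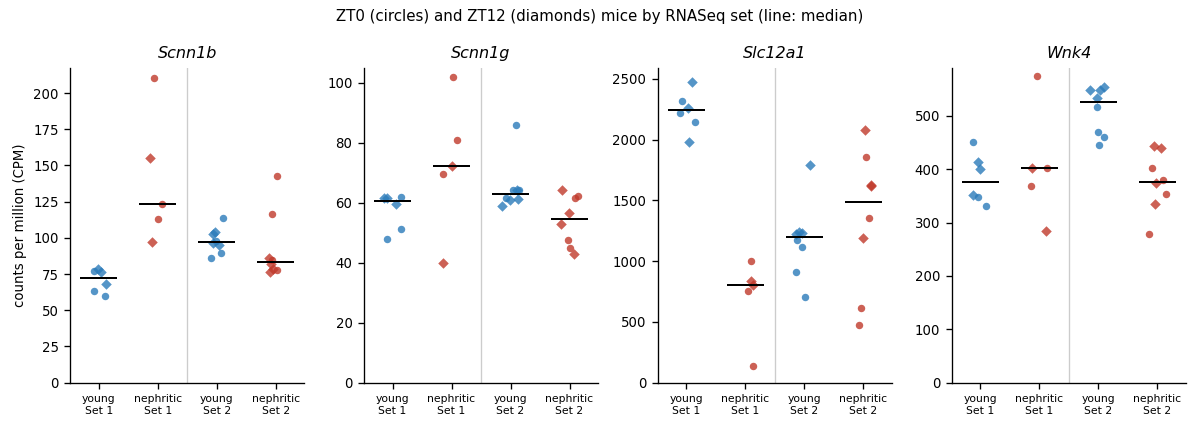
CPM (y axis, from 0) of the 4 genes whose nephritic difference depended on the set, in ZT0 (circles) and ZT12 (diamonds) mice by set and diagnosis, with the median as a line. Young and nephritic mice separate in Set 1 for Scnn1b and Slc12a1 and overlap in Set 2.

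Time of day was tested within each group over the 6 time points. In young mice 5 of 10 members passed, against 39.8% of all genes, and in nephritic mice 0 passed, against 21.6%, with 3 members at an unadjusted p under 0.05. With DESeq2, 3 members passed in nephritic mice (Scnn1b, Slc12a3 and Nedd4l), with 5646 of 16872 genes called. With limma-voom 1 passed (Slc12a3), with 3692 of 16872 called. In Set 2 alone 2 passed (Scnn1b and Nedd4l), with 4486 of 16651 called. The difference between the time courses was tested directly and passed for 1 member (Slc12a3, adjusted p = 0.0491), against 6.27% of all genes. That call was lost when any of 44 of the 57 mice was left out (adjusted p 0.0265 to 0.0885). In Set 2 alone Slc12a3 did not pass, while Scnn1b (adjusted p = 0.0158) and Scnn1g (adjusted p = 0.0398) did. Of all genes, 1715 of 17339 were called there. With DESeq2 Scnn1b passed beside Slc12a3, with 2186 of 17521 genes called. Scnn1b also passed without either of 2 nephritic mice (ZT12 replicate 2 and ZT0 replicate 5, adjusted p down to 0.0349). Over all alternatives the adjusted p ran from 0.0102 to 0.295 for Slc12a3, from 0.0158 to 0.339 for Scnn1b and from 0.0398 to 0.466 for Scnn1g. The other 7 genes passed in none of the 7 alternatives.

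Scnn1b had the largest cosine amplitude in young mice. Its mean level rose from 84.0 ± 18.8 CPM (SD, n = 7) at ZT0 to 117 ± 18.5 (n = 4) at ZT4 and 117 ± 11.9 (n = 4) at ZT8, and was 76.6 ± 12.95 (n = 4) at ZT20 (edgeR adjusted p = 0.00161 over time). A 24 h cosine gave an amplitude of 0.33 ± 0.05 (log2 ± SE) with a peak at 6.53 h. In nephritic mice the amplitude was 0.03 ± 0.09 (edgeR adjusted p over time 0.0583). Means there were 124 ± 43.9 CPM (n = 7) at ZT0, 85.7 ± 11.7 (n = 4) at ZT4 and 122 ± 12.0 (n = 4) at ZT8. Later they were 95.9 ± 29.9 (n = 6) at ZT12, 117 ± 16.8 (n = 3) at ZT16 and 94.5 ± 2.73 (n = 3) at ZT20. The time-point means of Scnn1b spanned 0.62 log2 units in young and 0.56 in nephritic mice. The time courses did not differ at the threshold (edgeR adjusted p = 0.08).

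Slc12a3 peaked near the same hour in young mice, at 5.65 h with an amplitude of 0.31 ± 0.07 (adjusted p = 0.0469). Its means were 1433 ± 154 CPM (n = 4) at ZT4, 1526 ± 180 (n = 4) at ZT8 and 1037 ± 362 (n = 4) at ZT16. The nephritic means were 722 ± 65.2 (n = 4) at ZT4, 1248 ± 230 (n = 4) at ZT8, 727 ± 273 (n = 6) at ZT12 and 1281 ± 450 (n = 3) at ZT20. Leaving out any of 23 of the 30 young mice ended the young call (adjusted p up to 0.094).

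Stk39 and Nedd4l were high from ZT12 on or at ZT12 in young mice. Stk39 had an amplitude of 0.15 ± 0.03 and a peak at 17.3 h, with means of 51.9 ± 4.60 CPM (n = 4) at ZT8 and 64.9 ± 2.16 (n = 4) at ZT20 (adjusted p = 0.00468 over the time points). Nedd4l peaked at 12.7 h with an amplitude of 0.12 ± 0.02 (adjusted p = 0.00224), and its mean was 151 ± 12.6 CPM (n = 7) at ZT12 against 121 ± 4.24 (n = 4) at ZT4. Slc12a1 differed between time points (adjusted p = 0.0168) but did not follow a single wave. Its means were 1514 ± 688 CPM (n = 7) at ZT0, 892 ± 159 (n = 4) at ZT8, 1743 ± 524 (n = 7) at ZT12, 1129 ± 111 (n = 4) at ZT16 and 1603 ± 498 (n = 4) at ZT20, and with cosine terms it did not pass (adjusted p = 0.0539, within 0.00128 to 0.0539 over the alternatives). Without 1 young ZT20 mouse (replicate 3) its adjusted p was 0.0683.

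The cosine amplitude was larger in young than in nephritic mice for 9 of 10 members, without a test of the difference. The range of the time-point means was larger in young mice for 2 of 10. The shares of all genes with a larger amplitude or range in young mice were not counted. The contrast of ZT0 with ZT12 alone passed for 0 members in young (3.66% of all genes, with 1 member at an unadjusted p under 0.05), 0 in nephritic (3.52%, with 2) and 0 in remission mice (0.0475%, with 0) by edgeR. Limma-voom called 1 member in nephritic mice (Slc12a3), with 650 of 16841 genes called.

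**Figure D4:**
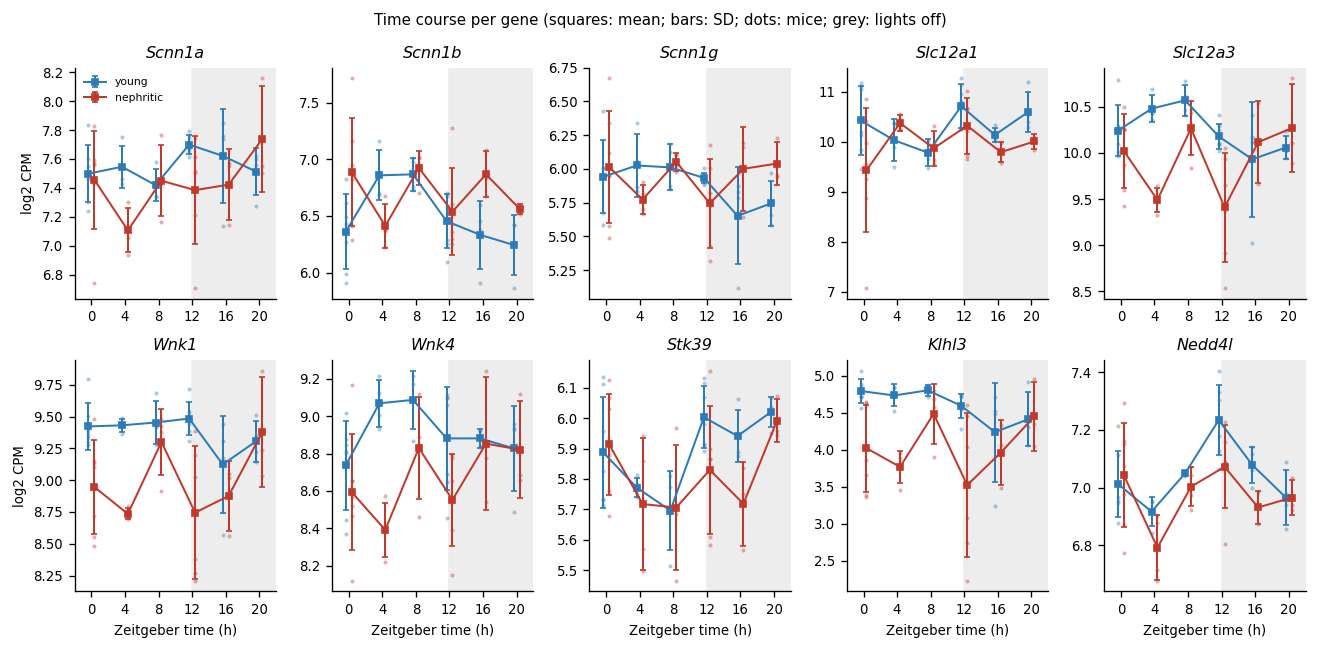
Log2 CPM (y axis) against Zeitgeber time (x axis) for each gene in young and nephritic mice, with means, SD bars and a dot per mouse; lights were off in the grey part. Young Scnn1b and Slc12a3 are high at ZT4 and ZT8, and several nephritic curves dip at ZT4 and ZT12.

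Each time point was then compared by itself, and the genes lower in nephritic mice were called at ZT0, ZT4 and ZT12. At ZT4, 5 members were lower and 0 higher, against 30.3% of all genes called. Slc12a3 was at 1658, 1310, 1380 and 1382 CPM in the young mice and at 801, 734, 709 and 643 in the nephritic mice (-1.03 ± 0.24, adjusted p = 0.00139). All nephritic mice were below all young mice. Wnk1 was at 719, 659, 693 and 692 CPM in young and at 445, 425, 415 and 420 in nephritic mice (-0.74 ± 0.20, adjusted p = 0.00547), and Wnk4 at 594, 488, 514 and 557 against 380, 335, 335 and 298 (-0.72 ± 0.17, adjusted p = 0.00132). Neither gene overlapped between groups. Klhl3 was at 28.4, 23.0, 28.7 and 26.7 CPM against 15.5, 13.5, 14.8 and 10.96 (-1.002 ± 0.32, adjusted p = 0.0145), and Scnn1a at 215, 172, 177 and 187 against 158, 133, 122 and 140 (-0.48 ± 0.17, adjusted p = 0.0296). These groups did not overlap either, but the Scnn1a call was lost without any of 21 mice, and the Klhl3 call without 1 nephritic ZT4 mouse (replicate 4). How many of all genes were without overlap at ZT4 was not counted. Scnn1b was at 143, 104, 103 and 118 CPM against 102, 82.5, 83.2 and 74.7, without overlap and without passing (adjusted p = 0.0753), but it passed as lower in Set 2 alone, the set that holds all ZT4 mice. The injury score of the nephritic mice differed between time points, at 6.59 to 7.54 in these 4 mice, 3.74 to 9.55 at ZT0, 4.25 to 7.06 at ZT8 (with 3 of 4 mice at 5.55 or lower), 4.71 to 8.87 at ZT12, 3.71 to 8.15 at ZT16 and 3.38 to 7.18 at ZT20. Its part in the differences between time points was not tested.

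At ZT12, 5 members were lower and 0 higher, against 50.0% of all genes: Klhl3 (-0.92 ± 0.26), Slc12a3 (-0.72 ± 0.19), Wnk1 (-0.69 ± 0.16), Wnk4 (-0.35 ± 0.13) and Nedd4l (-0.17 ± 0.06). In Set 2 alone 2 of them passed (Wnk1 and Wnk4), with 5080 of 17339 genes called. Over both sets, single mice decided 2 calls. That of Wnk4 was lost without young ZT12 mouse replicate 3 or nephritic ZT12 mouse replicate 1 or 6, and that of Nedd4l without young ZT12 mouse replicate 3 or 5 or nephritic ZT12 mouse replicate 1. At ZT0, 3 members passed, against 39.5%, with Scnn1b higher (0.54 ± 0.16, adjusted p = 0.00717) and Wnk1 (-0.45 ± 0.15) and Klhl3 (-0.69 ± 0.24) lower. The Scnn1b call rested on Set 1, and without it the difference was 0.13 (adjusted p = 0.527). The Wnk1 and Klhl3 calls were each lost without nephritic ZT0 mouse replicate 4 or 6, and that of Klhl3 also without young ZT0 mouse replicate 6. At ZT8, ZT16 and ZT20 edgeR called 0 members, against 3.66%, 17.7% and 5.48% of all genes, with 0, 1 and 0 members at an unadjusted p under 0.05. In Set 2 alone, which holds all mice of these times, Scnn1b passed as higher at ZT16 (4512 of 17339 genes called). Its 3 nephritic mice lay at 102 to 136 CPM there and its 4 young mice at 59.9 to 96.4 (0.52 ± 0.23, adjusted p = 0.11 over all mice). At ZT16 all nephritic mice were also below all young mice for Slc12a1, Stk39 and Nedd4l. At ZT20 Slc12a1 was lower and Scnn1b higher without overlap, and none of these 5 passed. The share of all genes that separate in this way was not counted, so these separations have no background to be read against.

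Remission mice were compared with the other groups at ZT0 and ZT12. Against nephritic mice, 3 members were higher and 1 lower, with 37.8% of all genes called. Stk39 lay between 62.1 and 85.2 CPM in the 8 remission mice (median 72.9), and between 47.9 and 71.3 in nephritic mice at the same times, which overlapped. It was higher by 0.36 ± 0.08 (adjusted p = 0.000408). Stk39 was the 1 member that kept its call against both groups when the run was fitted through either 4 or 3 repeat libraries (0.44, adjusted p = 0.0115, with 3). Those fits count the repeated mice as separate mice.

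Slc12a1 was at 2164, 2605, 2007 and 2107 CPM in the ZT0 remission mice and at 1697, 1382, 1378 and 2174 in the ZT12 mice. All ZT0 remission mice were above all ZT0 nephritic mice, which reached 1858, but how many of all genes separate like this was not counted. The ZT12 remission mice overlapped in Slc12a1 with nephritic mice that reached 2077. The difference was 0.86 ± 0.30 (adjusted p = 0.0222), and without the remission ZT12 mouse that went against its time label it was 0.78 (adjusted p = 0.0507, within 0.00403 to 0.0507 over all fits without 1 mouse). Klhl3 was higher by 0.57 ± 0.22 (adjusted p = 0.0437), a call lost without any of 20 of the 35 mice. Scnn1b was at 62.8, 60.6, 70.1 and 76.5 CPM at ZT0 and at 103, 95.2, 77.4 and 70.7 at ZT12, lower by 0.48 ± 0.16 (adjusted p = 0.0214). With the run bridged by 3 repeats, 1 member passed (Stk39), with 3745 of 16919 genes called. With 4 repeats 3 passed (Scnn1b, Slc12a1 and Stk39), with 4031 of 16941 genes called.

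Against young mice, 3 members passed, with 41.6% of all genes called. Slc12a3 (-0.50 ± 0.16, adjusted p = 0.0133) and Wnk1 (-0.52 ± 0.15, adjusted p = 0.00536) were lower in remission, and Stk39 was higher (0.30 ± 0.08, adjusted p = 0.00213). Slc12a3 ran from 701 to 1131 CPM in remission mice (median 899) and Wnk1 from 413 to 654 (median 462). With a run covariate Stk39 was the 1 member that passed, with 2417 of 16941 genes called through 4 repeats and 1768 of 16919 through 3. In Set 2 alone 7 members passed, with 6684 of 16384 genes called. Thick ascending limb markers were higher in remission than in both other groups (3 of 4 passed each time, with sums of 5730 to 7278 CPM), 2 of 4 distal convoluted tubule markers were lower than in young mice, and all 6 leukocyte markers were higher than in young mice. Their part in these differences was not tested.

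Among the 27 nephritic mice, the injury score ran from 3.38 to 9.55 (young 2.79 to 4.94, remission 4.74 to 6.46). With time point and set as covariates, 7 of 10 members followed it, against 49.2% of all genes. Klhl3 (-0.25 ± 0.04 log2 units per unit of score, adjusted p = 3.78e-06), Slc12a1 (-0.23 ± 0.05), Slc12a3 (-0.17 ± 0.03), Wnk1 (-0.16 ± 0.02, adjusted p = 5.56e-06), Wnk4 (-0.12 ± 0.02) and Scnn1a (-0.11 ± 0.03, adjusted p = 0.00189) were lower in more injured kidneys. Scnn1b was higher (0.09 ± 0.02, adjusted p = 0.00128). Scnn1g, Stk39 and Nedd4l did not pass. These 7 genes passed, in the same direction, in each of the 8 alternatives run and in each of the 27 fits without 1 mouse. The ENaC subunits thus had slopes of opposite sign for Scnn1a and Scnn1b in the same mice. Segment markers followed the score as well. All 4 distal convoluted tubule markers (median -0.45) and all 5 proximal tubule markers had negative slopes, as did 2 of 4 thick ascending limb and 2 of 6 principal cell markers, with 0 positive. Their part in the members' slopes was not tested.

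**Figure D5:**
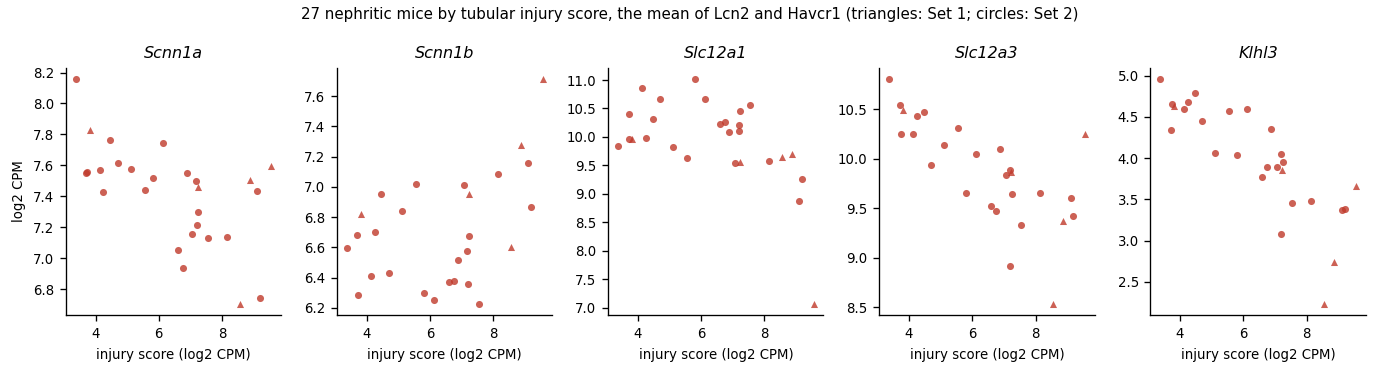
Log2 CPM (y axis) of 5 members against the injury score (x axis, mean log2 CPM of Lcn2 and Havcr1) in the 27 nephritic mice, with Set 1 mice as triangles. Klhl3 and Slc12a3 fall across the range, Scnn1b is highest in the most injured mice, and the lowest Slc12a1 point is a Set 1 mouse.

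The ratio of Scnn1b to Scnn1a counts was compared within mice, a test chosen after the values were seen. It ran from 0.348 to 0.797 in young mice (median 0.464), from 0.338 to 1.09 in nephritic mice (median 0.5998) and from 0.294 to 0.460 in remission mice (median 0.346). The ratio was higher in nephritic than in young mice by 0.34 on the log2 scale (permutation test within time point and set, two-sided p = 0.00061), but in Set 2 alone by 0.18 (p = 0.054). It was lower in remission than in nephritic mice, with a difference of -0.78 (permutation p = 0.0026) and lower than in young mice, with -0.29 (permutation p = 0.0071). Tests with remission mice permuted within time point alone, although all remission mice were in Set 2. In Set 2 alone, or without the remission mouse against its time label, these differences were -0.74 to -0.56 and -0.42 to -0.24 (permutation p up to 0.012 and 0.023). The ratio tests held no run term. In young ZT0 mouse replicate 3, Scnn1a was at 182 CPM in the original and 218 in the repeat, and Scnn1b at 86.2 and 89.1. In young ZT12 mouse replicate 1 they were at 204 and 242, and at 96.5 and 97.0. In nephritic ZT0 mouse replicate 6 they were at 107 and 134, and at 117 and 123. The repeat that resembled a different mouse went the other way (215 and 184, 76.3 and 102). The part of the run was not tested. The ratio of Scnn1b to Scnn1g was higher in nephritic mice by 0.17 (permutation p = 0.0052), in Set 2 alone by 0.06 (p = 0.28). It was lower in remission than in nephritic mice, with -0.36 (permutation p = 0.0099), and with -0.36 to -0.29 in the same 2 alternatives (permutation p up to 0.05). Over all mice 6 such tests were run, and the last, Scnn1b to Scnn1g in remission against young mice, had a permutation p of 0.92. Adjusted by Benjamini-Hochberg over the 6, the permutation p-values in the order given were 0.00366, 0.0078 and 0.01065 for Scnn1b to Scnn1a, and 0.0104 and 0.01188 for Scnn1b to Scnn1g.

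The wider pathway was followed in lists fixed with earlier results known. Of 13 channel and pump partners, 9 were lower and 1 higher in nephritic than in young mice, with a median of -0.23, where 62.1% of all genes passed. Prss8, a protease that activates ENaC, had a difference of -0.56 on the log2 scale, while St14, another membrane protease, was higher (0.25). Of 6 partners of the WNK-SPAK kinases 4 were lower, namely Wnk2 (-0.34), the SPAK cofactors Cab39l (-0.30) and Cab39 (-0.15), and Cul3 (-0.24), the ligase scaffold that works with KLHL3. Of 7 aldosterone pathway genes 3 were lower, the receptors Nr3c2 (-0.37) and Nr3c1 (-0.37) and the deubiquitinase Usp2 (-0.43), and the aldosterone-induced kinase Sgk1 had a difference of 0.04 (adjusted p = 0.847). Of 5 other apical sodium routes 3 were lower, the sodium-hydrogen exchangers Slc9a3 (-0.54) and Slc9a2 (-0.64) and the phosphate cotransporter Slc34a1 (-0.80), and Slc4a8 was higher (0.10).

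Against nephritic mice, 9 of the 13 channel and pump partners were higher in remission and 0 lower (37.8% of all genes passed), among them Kcnj1, the apical potassium channel (0.65), and Prss8 (0.45). Nr3c2, the mineralocorticoid receptor, was higher too (0.65). Of the kinase partners 1 was higher (Wnk2, 0.39), and of the other apical routes 1 (Slc9a2, 0.53). Against young mice (41.6% of all genes) 2 of the 13 partners were higher and 1 lower, 0 of 6 kinase partners passed, 1 of 7 aldosterone pathway genes was lower (Nr3c1, -0.42), and of 5 other routes 1 was higher and 2 lower. On the injury score (49.2% of all genes), 8 of 13 partners had a negative and 1 a positive slope, as did 3 and 1 of 6 kinase partners, 4 and 1 of 7 aldosterone pathway genes (Sgk1, -0.28, among the negative) and 3 and 0 of 5 other routes. Time of day passed in young mice (39.8% of all genes) for 8 of the 13 partners, 1 of 6 kinase partners, 3 of 7 aldosterone pathway genes (Sgk1, Tsc22d3 and Usp2) and 2 of 5 other routes. In nephritic mice (21.6%) it passed for 1 of 13 (Fxyd4), 0 of 6, 3 of 7 (Hsd11b2, Sgk1 and Tsc22d3) and 1 of 5 (Slc9a3). The time courses differed for Tsc22d3 (adjusted p = 0.0351) and Usp2 (adjusted p = 0.0307).

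Finally, mice were compared in how they deviated from the means of their time point and set. These correlations are across mice of 1 group that share library preparation and tissue makeup, and they carry no test. In 30 young mice the 3 ENaC subunits went together (r = 0.86 to 0.87), Slc12a3 went with Wnk1 (r = 0.89, rho = 0.85) and Scnn1b went against Slc12a1 (r = -0.70, rho = -0.66). In 27 nephritic mice Klhl3 and Wnk1 went together (r = 0.96, rho = 0.95). Slc12a3 and Klhl3 did too (r = 0.94, rho = 0.92), and Scnn1b and Slc12a1 went apart (r = -0.78, rho = -0.71). The ENaC subunits had r = -0.06 (Scnn1a and Scnn1b), 0.42 (Scnn1a and Scnn1g) and 0.60 (Scnn1b and Scnn1g) in these mice. The gene most like Scnn1b among 16520 others in young mice was Kcnq1 (r = 0.93), for Slc12a3 it was Scn4b (r = 0.95), for Slc12a1 Tmem207 (r = 0.91) and for Wnk1 Trpv5 (r = 0.94). In nephritic mice Slc12a1 was most like Mep1b (r = 0.97) and Slc12a3 most like Malrd1 (r = 0.94).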

How the data were processed

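Kidney RNA libraries of 65 mice (and 4 repeat libraries) were used. The files that the authors deposited hold raw, unscaled read counts for 24538 gene symbols, of which 15 with empty cells were left out. Per the study's methods reads were aligned to the mouse genome by a Burrows-Wheeler method and uniquely aligned reads counted, while the submitters' processing notes name HISAT and mm10. Strand use is not given in the sources used here. RNASeq set was inferred from the style of mouse titles and the study's table of mice per set, since no label field gives it.

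Genes with a summed count of at least 100 in a fit were kept and scaled by TMM. Tests used edgeR 4.0.16 in R 4.3.3 (quasi-likelihood, Benjamini-Hochberg over all genes tested, adjusted p of at most 0.05), with limma 3.58.1 (voom) and DESeq2 1.42.0 as alternatives. Log2 CPM used a prior count of 2. Cosine fits had a period of 24 h. Ratios were tested by permutation (1e+05 draws) within time point and set, or within time point alone where remission mice were compared. All 10 members are named in each comparison, pathway genes where they passed (some are not reported here), and the 3 genes most like a member were recorded. Scripts were tested on simulated data. Members and lists were chosen with earlier results of these data known. The set-by-diagnosis fit and the ratios were chosen after values were seen. Protein sequences were not used here.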

Additional observations from a re-analysis of the deposited data

Results flagged for a closer look

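Within the groups of 4 to 7 mice at 1 time point, 7 of 120 gene and group pairs had a mouse far from the rest, and chance flags about 1 in 20. The first young ZT16 mouse was the lowest of 4 in 3 genes, with Scnn1a at 140.6 CPM (next 213), Scnn1g at 34.6 CPM (next 55.2) and Klhl3 at 9.43 CPM (next 22.2). Wnk4 was at 359 CPM in young ZT20 mouse replicate 3 (next 487), and Slc12a3 at 1769 CPM in young ZT0 mouse replicate 4 (next 1248). In nephritic mice, Scnn1a was at 107 CPM in ZT0 mouse replicate 6 (next 173), and Scnn1b at 155 CPM in ZT12 mouse replicate 2 (next 97.2).

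Young and nephritic mice differed in the time course of Slc12a3 (edgeR adjusted p = 0.0491). Leaving out any of 44 of the 57 mice ended this call, and Slc12a3 did not pass in Set 2 alone. The nephritic difference in level differed between the RNASeq sets for Scnn1b (1.06 on the log2 scale, Set 1 minus Set 2), Scnn1g (0.59), Wnk4 (0.54) and Slc12a1 (-1.83).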

How the results depend on the processing

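Alternatives covered scaling, the filter on low counts, limma-voom, DESeq2, Set 2 alone, covariates, repeats and leaving out mice. The slope on injury kept its 7 calls throughout. No paired analysis was possible because the labels give no replicate numbers that pair mice across groups. Some nephritic titles share a prefix, whose meaning the labels do not give, and a block by it was not fitted. Unless stated, the cause of a change was not tested. The count of members lower or higher in nephritic mice was 1 with the distal marker or the injury covariate (6333 and 2923 of 17521 genes). Time of day in nephritic mice gave 1 member with limma-voom (3692 of 16872 genes). It gave 2 in Set 2 alone (4486 of 16651) and 3 with DESeq2 (5646 of 16872). The difference in time course gave 0 without a filter (748 of 21530) and with limma-voom (453 of 17521). It also gave 0 without the set covariate (968 of 17521) and with cosine terms (121 of 17521). It gave 2 in Set 2 alone (1715 of 17339) and with DESeq2 (2186 of 17521). Remission against nephritic gave 1 with the distal covariate (3851 of 16841 genes) or with 3 repeats (3745 of 16919). Remission against young gave 7 in Set 2 alone (6684 of 16384 genes) and 1 with 4 or 3 repeats (2417 of 16941 and 1768 of 16919). ZT0 against ZT12 gave 1 in young mice in Set 2 alone (611 of 16384 genes). With 4 or 3 repeats it also gave 1 in young mice (861 of 16941 and 858 of 16919). In nephritic mice it gave 1 with limma-voom (650 of 16841) or the distal covariate (1541 of 16841). A larger swing in young mice was found for 2 members by the range of means, not 9, and the shares over all genes were not counted.

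Without 1 mouse at a time, the counts were 0 to 2 for time of day in nephritic mice, 0 to 2 for the difference in time course, and 0 to 1 for ZT0 against ZT12 in young and in nephritic mice.

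In Set 2 alone the Scnn1b to Scnn1a ratio difference of nephritic minus young was 0.18 and that of Scnn1b to Scnn1g 0.059, and Scnn1b to Scnn1g in remission minus young was -0.12 (without 1 mouse at a time, -0.027 to 0.046).

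Signs turned, all without passing the threshold, in the following. For nephritic minus young with the injury covariate, the log2 differences were Scnn1a 0.15, Scnn1b -0.024, Scnn1g -0.012, Slc12a1 0.21, Slc12a3 0.13, Wnk1 0.052, Wnk4 0.056, Stk39 0.019 and Klhl3 0.081. With the distal covariate they were Scnn1a 0.039, Slc12a1 0.087 and Stk39 0.012, and in Set 2 alone Scnn1g -0.022 and Slc12a1 0.0099. Without nephritic ZT0 mouse replicate 3, Scnn1g was at -0.00089 (-0.00089 to 0.068 without 1 mouse at a time). For remission minus nephritic, Set 2 alone gave Scnn1g 0.02042 and Wnk4 0.074, no set covariate gave Slc12a3 0.021 and Wnk4 0.035, and the distal covariate gave Wnk1 -0.30. With 4 repeats Slc12a3 was 0.033 and Nedd4l -0.033, and with 3 repeats 0.12 and -0.11. Without 1 mouse at a time Slc12a3 was -0.13 to 0.014, Wnk1 -0.026 to 0.12 and Wnk4 -0.093 to 0.011. For remission minus young, Nedd4l was -0.014 without a filter, -0.11 with 4 and -0.16 with 3 repeats, and -0.033 to 0.024 without 1 mouse at a time.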
